A study of Arabidopsis thaliana with 4 samples.

Results

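The subject is how the response of microRNAs (miRNAs) to salt differed between Arabidopsis thaliana seedlings that carry ABR17 and wild-type seedlings. ABR17 is an abscisic acid-responsive gene of pea, given to the plants as a cDNA. For each miRNA the salt response of each genotype was the log2 level with 100 mM NaCl minus the log2 level with 0 mM NaCl in the medium, and the wild-type response was subtracted from the ABR17 response. A positive difference of responses therefore means that the level with salt, relative to that without, was higher in ABR17 plants than in the wild type. The miRNAs were those detected on all 4 arrays of the series, which were 30 of the 213 probed. A miRNA was detected on an array when at least 50% of its 12 repeat spots read above the blank mean plus 3 blank SD.

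The groups were ABR17 seedlings with salt (ABR17_salt), ABR17 seedlings without (ABR17_control), wild-type seedlings with salt (WT_salt) and wild-type seedlings without (WT_control), each grown for 2 weeks and each represented by 1 array. The sources used here name neither the promoter of the transgene nor the number of transgenic lines. The design text speaks of 3 biological replicates, without saying whether an array holds RNA pooled from them. The difference of responses uses all 4 arrays, so no error between plants could be estimated and no test was made. The probes do not read the transgene, so the genotype labels could not be checked. In whole seedlings, fewer cells of a type and less RNA per cell cannot be told apart. Each SE below comes from the repeat spots before normalisation and covers spotting and scanning only, not the scaling between arrays.

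Plant miRNAs are short RNAs that guide ARGONAUTE proteins to messenger RNAs with nearly complementary sites, which are then cleaved or held from translation. Many of the conserved families target transcription factors that set the timing of growth, organ boundaries and leaf shape, and others target enzymes of copper, sulfate and phosphate use. Several of these families are known to change with salt in Arabidopsis seedlings. A probe reads all RNAs that pair with it, so relatives that differ by a base or so may share signal, as may identical miRNAs made from separate genes.

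The sequences of the miRNAs that differed by 2-fold or more, as the array files give them, are shown because they carry the comparison, with a relative of the same family where one was detected on all arrays. They run 5′ to 3′ and capitals mark the seed, bases 2 to 8. The first 4 stood at the upper end of the difference of responses or belong to the family of one that did.
miR5021: uGAGAAGAagaagaagaaaa
miR319c: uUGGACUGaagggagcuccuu
miR319a: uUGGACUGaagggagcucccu
miR824: uAGACCAUuugugagaaggga
miR163: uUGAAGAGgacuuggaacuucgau
miR164c: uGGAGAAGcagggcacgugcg
miR164a: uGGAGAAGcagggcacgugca
miR171a: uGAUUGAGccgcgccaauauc
miR171b: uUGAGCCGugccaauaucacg
miR157a: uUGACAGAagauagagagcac
miR157d: uGACAGAAgauagagagcac

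The arrays did not read alike outside the miRNA probes, and every value here rests on all of them. Blank spots averaged an intensity of 86.5 on ABR17_salt, 111 on ABR17_control, 84.8 on WT_salt and 231 on WT_control, and the detection thresholds were 98.3, 151, 101 and 298 in that order. WT_control stood apart in brightness, and no difference of responses can be formed without it. The calibration probe PUC2MM read 4019 ± 430 on ABR17_salt and 1176 ± 180 on ABR17_control, against 1844 ± 298 on WT_salt and 11421 ± 889 on WT_control (SD of 16 spots). It was thus brighter with salt in ABR17 and dimmer with salt in the wild type, the pattern also seen in the miRNAs counted higher below. Its part in those results was not tested. Before normalisation, 8 of the 11 calibration probes named 3P had a difference of responses between −0.22 and 0.62, and Ctr01-3P, Ctr04-3P and Ctr10-3P were at 2.59, 2.496 and 1.99.

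Over the 30 miRNAs the difference of responses ran from 1.996 for miR5021 to −1.27 for miR163, with a median of 0.00. A miRNA was counted when its difference reached 1 in either direction on the log2 scale (2-fold). By this rule 8 of the 30 were counted (26.7%). Of these, 3 were counted higher in ABR17 (10.0% of those compared), namely miR5021, miR319c and miR824, and 5 lower (16.7%), namely miR163, miR164c, miR171a, miR157a and miR164a. Among all 213 probes, detected or not, 2.35% passed the same size upwards and 2.35% downwards. Of the 22 that were not counted, the highest was miR319a at 0.55 and the lowest miR171b at −0.90, and 15 of the 30 lay within 0.25 of 0. The upper group was set off by a gap of 0.74 on this scale, whereas the lower group ran on from the uncounted miRNAs without a comparable gap.

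**Figure D1:**
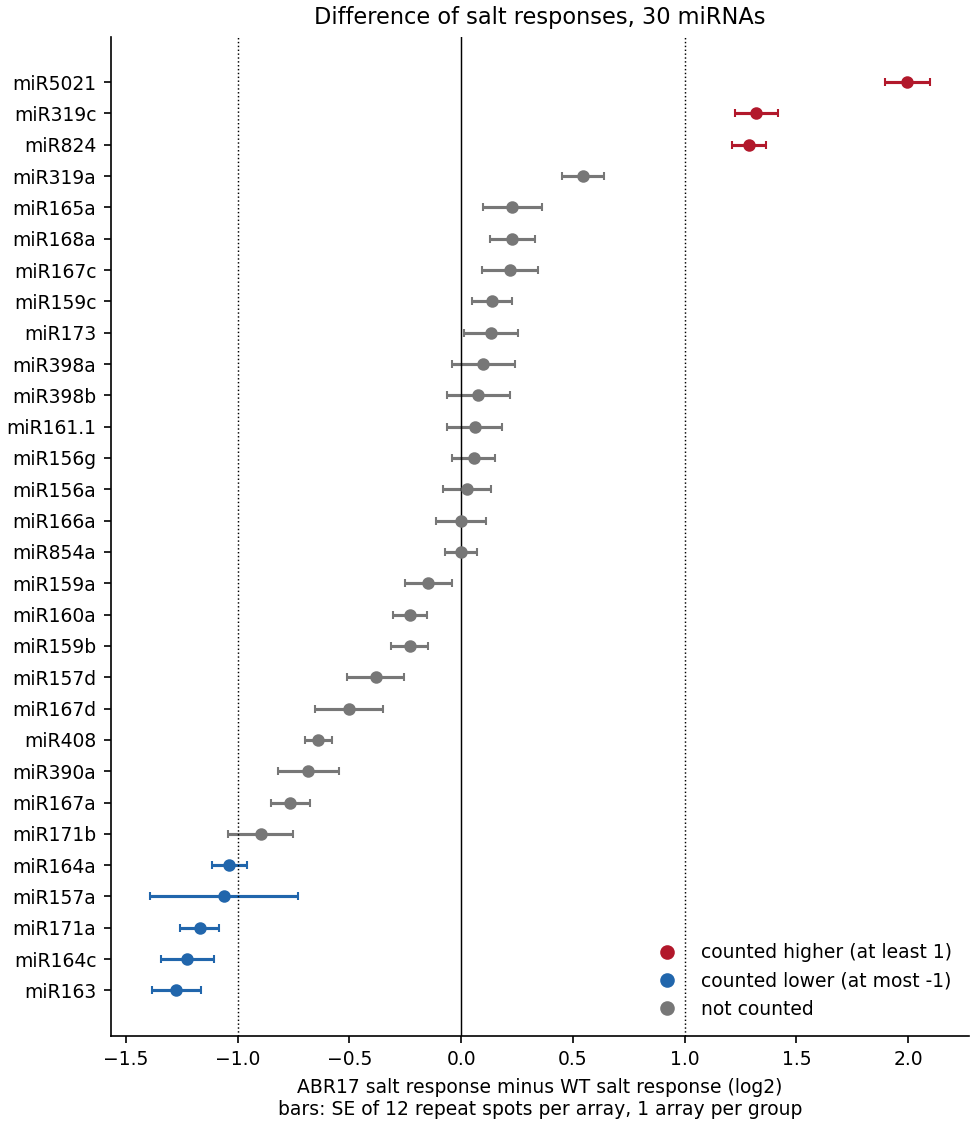
ABR17 salt response minus WT salt response (log2) for each of the 30 miRNAs detected on all 4 arrays, with bars for the SE of the repeat spots. The 3 red points lie at 1.29 to 1.996 and the 5 blue points at −1.04 to −1.27.

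The largest difference was that of miR5021 (AT2G08235). Its normalised log2 level was 8.68 on ABR17_salt and 7.93 on ABR17_control, against 8.35 on WT_salt and 9.59 on WT_control. WT_control was the highest of the 4 and ABR17_control the lowest, so the genotypes moved in opposite directions. The response was 0.75 ± 0.07 in ABR17 and −1.24 ± 0.07 in the wild type (SE of repeat spots), a difference of 1.996 ± 0.10, or 3.99-fold between the 2 ratios. When spots at the same position on the 4 arrays were paired, the 12 differences ran from 1.78 to 2.31. Unscaled intensities were 415 ± 53.4, 236 ± 21.7, 207 ± 20.9 and 1212 ± 131 on ABR17_salt, ABR17_control, WT_salt and WT_control (SD of 12 spots). The authors' deposited values, whose scaling is unknown, were 357, 169.5, 193.5 and 473 in the same order and gave a difference of 2.36.

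miR319c (AT2G40805) directs the cleavage of TCP transcription factor messages that control leaf growth and curvature. Its level was 8.61 on ABR17_salt and 7.90 on ABR17_control, against 8.00 on WT_salt and 8.61 on WT_control. The normalised level was the same on ABR17_salt and WT_control because miR319c held the same rank on both, so it does not show equal amounts. Unscaled intensities were 399.2 on ABR17_salt and 930.2 on WT_control. The authors' deposited values were 343.05 on ABR17_salt and 322.82 on WT_control. Responses were 0.71 ± 0.06 in ABR17 and −0.61 ± 0.07 in the wild type, a difference of 1.32 ± 0.10 with all 12 paired spots above 0 (0.58 to 1.85). Its relative miR319a, which differs by a single base, stood at 7.46 on ABR17_salt and 7.46 on ABR17_control, against 7.00 on WT_salt and 7.55 on WT_control. That gave 0.55 ± 0.09, on the same side of 0 and not counted. In the authors' deposited values miR319a reached 1.29 and miR319c 2.04.

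miR824 (AT4G24415), a miRNA of the Brassicaceae, targets AGAMOUS-LIKE16, a MADS-box gene of stomatal patterning and flowering time. Its level was 8.42 on ABR17_salt and 7.37 on ABR17_control, against 7.69 on WT_salt and 7.93 on WT_control. In these normalised levels ABR17_salt was the highest array and ABR17_control the lowest. Unscaled intensities were 311, 163.7, 163.8 and 781 on ABR17_salt, ABR17_control, WT_salt and WT_control. The authors' deposited values were 239, 87.8, 129 and 245 in the same order, and WT_control was the highest in both. In the reported values most of the difference of 1.29 ± 0.07 came from the ABR17 response (1.05 ± 0.05). The wild-type response was −0.24 ± 0.05. That split depended on the scaling. Without normalisation the responses were 1.19 in ABR17 and −2.18 in the wild type, and in the authors' deposited values 1.45 and −0.93. On ABR17_control 10 of its 12 spots passed the detection threshold, with a mean intensity of 163.7 against a threshold of 151, and with a threshold of 6 blank SD it was no longer detected on every array.

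Levels of the miRNAs at the lower end are normalised values, and in unscaled intensity WT_control was the brightest array for all 5. The lowest difference was that of miR163 (AT1G66725), which targets methyltransferase genes of secondary metabolism and is found in Arabidopsis and its close relatives. Its level was 7.84 on ABR17_salt and 8.26 on ABR17_control, against 7.93 on WT_salt and 7.08 on WT_control. The untreated wild type was the low array, and the other 3 lay within 0.43 of each other. The response was −0.43 ± 0.05 in ABR17 and 0.85 ± 0.09 in the wild type, which left a difference of −1.27 ± 0.11. The authors' deposited values were 131 on ABR17_salt and 308 on ABR17_control, against 172.5 on WT_salt and 85.2 on WT_control, with a difference of −2.25.

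Both probes for miR164, which restrains NAC factors such as the CUP-SHAPED COTYLEDON genes at organ boundaries, were counted lower. miR164c (AT5G27807) was at 7.90 on ABR17_salt and 8.42 on ABR17_control, against 8.07 on WT_salt and 7.37 on WT_control. For miR164a (AT2G47585) the levels were 7.69 on ABR17_salt and 8.35 on ABR17_control, against 7.84 on WT_salt and 7.46 on WT_control. In both, ABR17_control was the highest array and WT_control the lowest. The differences of responses were −1.22 ± 0.12 for miR164c and −1.04 ± 0.08 for miR164a. Their sequences differ in 1 base, so these are not independent readings.

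The miR171 family restrains the HAIRY MERISTEM genes, GRAS factors that maintain meristems. miR171a (AT3G51375) was at 7.93 on ABR17_salt and 7.84 on ABR17_control, against 8.26 on WT_salt and 7.00 on WT_control. In the reported values it was the only counted miRNA whose responses had the same sign in both genotypes, at 0.09 ± 0.06 in ABR17 and 1.26 ± 0.06 in the wild type, a difference of −1.17 ± 0.09. miR171b (AT1G11735), whose sequence is 7 edits away, was at 6.74 on ABR17_salt and 7.29 on ABR17_control, against 7.08 on WT_salt and 6.74 on WT_control. Its responses were −0.55 ± 0.06 in ABR17 and 0.35 ± 0.13 in the wild type. Its difference of −0.90 ± 0.14 lay just short of the size that counts. It was also the dimmest on the rule for detection, with 9 of 12 spots above the threshold on ABR17_control.

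miR157a (AT1G66783) belongs to the families that target SPL factors and delay the change from the juvenile to the adult phase. Its level was 9.36 on ABR17_salt and 9.59 on ABR17_control, against 9.51 on WT_salt and 8.68 on WT_control. The difference of responses was −1.06 ± 0.33. That value rested on a single spot of WT_control, whose background-corrected log2 intensity was 6.15 while the other spots lay between 9.62 and 10.22. With the position of that spot left out on all arrays the difference was −0.33, and with the median of the spots in place of their mean it was −0.37. Paired by position, all 12 spots lay below 0 (−4.66 to −0.40, with a median of −0.81), but each takes its array shift from the mean that includes the dim spot. miR157d was at 9.11 on ABR17_salt and 9.51 on ABR17_control, against 9.496 on WT_salt and 9.51 on WT_control, which gave −0.38 ± 0.13. It was at −0.34 in the values without the dim miR157a spot and at −0.31 with the median of spots. The SPL-targeting miR156a and miR156g were at 0.03 ± 0.11 and 0.06 ± 0.10. The SPL list thus had 1 of its 4 compared members counted lower and none without that spot position, with a median of −0.18 beside 0.00 for all 30.

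**Figure D2:**
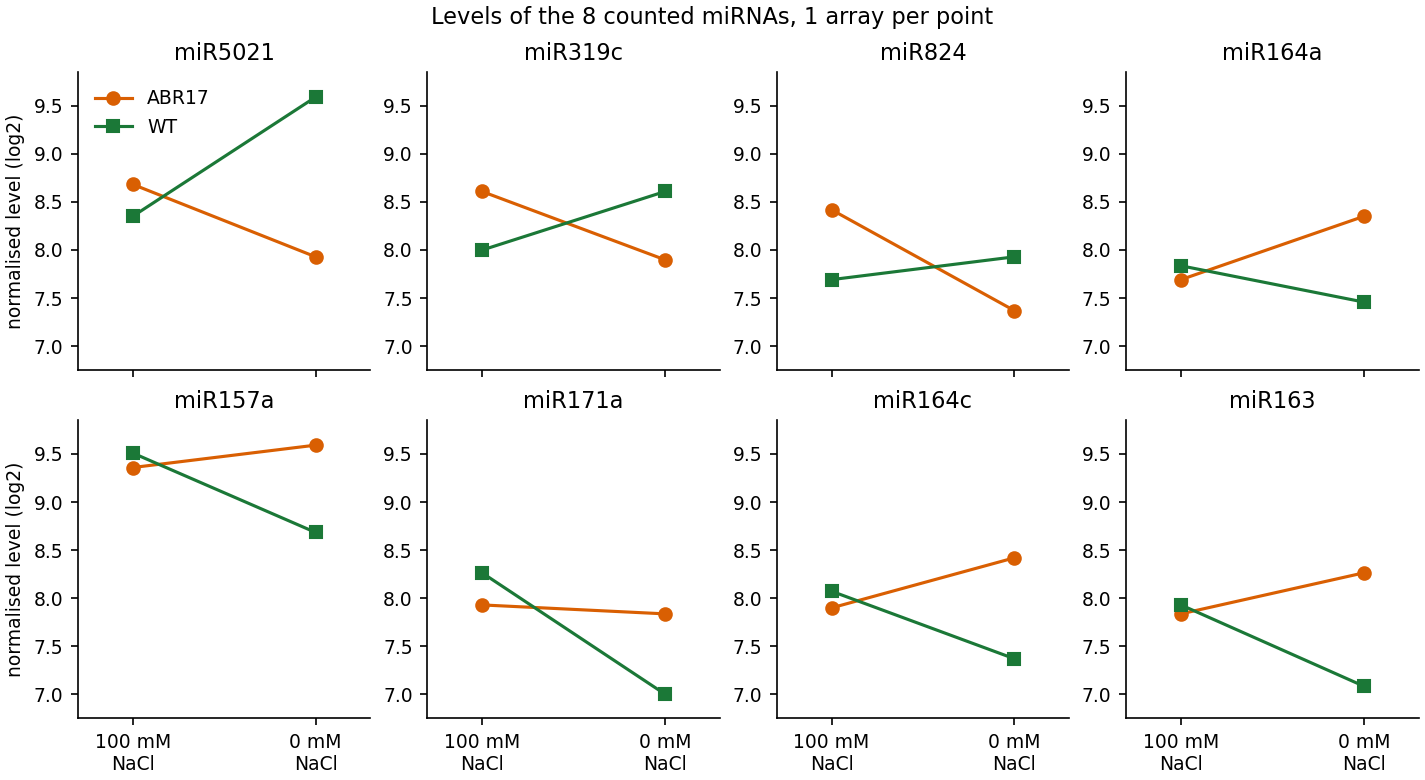
Normalised log2 level of the 8 counted miRNAs with 100 mM and 0 mM NaCl in ABR17 (circles) and wild type (squares), 1 array per point. The lines cross for all 8, and the points for WT_control are the lowest of the 4 in the 5 miRNAs counted lower.

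None of the other families had a counted member. In the reported values both miR398 probes, which target copper/zinc superoxide dismutases, had nearly the same negative response in the 2 genotypes. For miR398b the responses were −0.90 ± 0.14 in ABR17 and −0.98 ± 0.03 in the wild type, and for miR398a −0.68 ± 0.04 in ABR17 and −0.78 ± 0.14 in the wild type. The differences were 0.08 ± 0.14 and 0.10 ± 0.14, within their spot error. Both differences depended on the processing. Without normalisation they were 2.03 for miR398b and 2.29 for miR398a, and in the authors' deposited values 0.62 and 1.11. With the blank mean subtracted they were −0.27 and −0.26. miR408, a regulator of plantacyanin and other copper proteins, differed by −0.64 ± 0.06, from 0.07 ± 0.04 in ABR17 and 0.71 ± 0.04 in the wild type.

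Among auxin-related miRNAs, miR167a and miR167d, which target the auxin response factors ARF6 and ARF8, were at −0.76 ± 0.09 and −0.50 ± 0.15. The related miR167c was at 0.22 ± 0.13, and miR160a, which targets another set of auxin response factors, at −0.23 ± 0.08. The list median was −0.37 over 4. The triggers of trans-acting small interfering RNAs differed from each other. miR173, which acts on TAS1 and TAS2 transcripts, had a positive response in both genotypes (0.83 ± 0.09 in ABR17 and 0.69 ± 0.08 in the wild type), and the difference of 0.13 ± 0.12 was close to its spot error. miR390a, which acts on TAS3, was at −0.68 ± 0.14, with a response of 0.00 in ABR17 and 0.68 in the wild type.

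Several of the bright probes lay within 0.25 of 0, whereas miR157d and miR157a, also bright, did not. miR159a, miR159b and miR159c, which target MYB factors of the gibberellin pathway, were at −0.15 ± 0.10, −0.23 ± 0.08 and 0.14 ± 0.09. miR165a, which with miR166a acts on class III HD-ZIP factors of leaf polarity, was at 0.23 ± 0.13. miR168a, which targets ARGONAUTE1, was at 0.23 ± 0.10, and miR161.1, which targets pentatricopeptide repeat genes, at 0.06 ± 0.12. For miR166a and miR854a the difference was exactly 0 because each held the same rank on every array, which the normalisation turns into the same value. The authors' deposited values for miR854a were 3152 on ABR17_salt and 2913 on ABR17_control, against 2753 on WT_salt and 7449 on WT_control. There miR854a had a difference of 1.55, and miR166a stayed at 0.00 to 2 decimals.

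**Figure D3:**
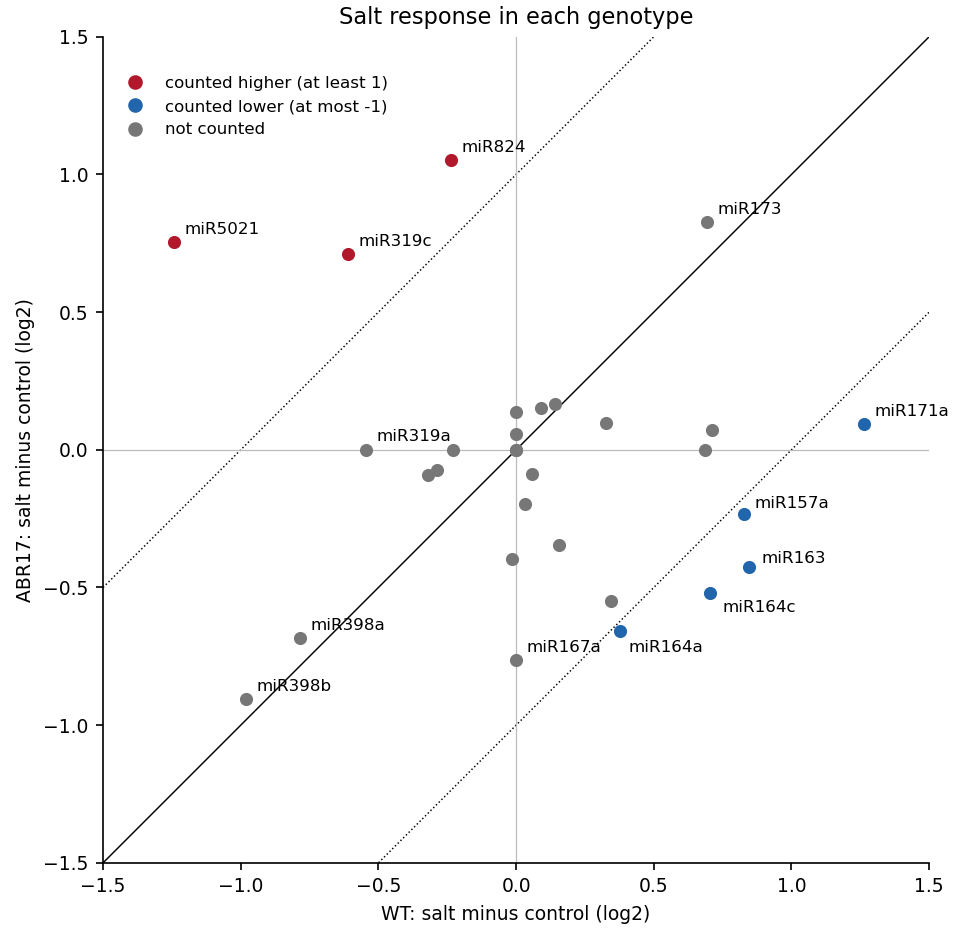
Salt response (log2, salt minus control) in ABR17 on the vertical axis and in wild type on the horizontal axis for the 30 miRNAs; the solid line marks equal responses and the dotted lines a difference of 1. The 3 miRNAs counted higher lie upper left and 4 of the 5 counted lower lie at lower right, with miR171a just above 0 on the vertical axis.

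Set against each other, the responses had opposite signs in 11 of the 30 miRNAs: 3 were higher with salt in ABR17 and lower with salt in the wild type, and 8 the other way round. They shared a positive sign in 6 and a negative sign in 5. Another 8 had a response of 0 in at least 1 genotype because they held the same rank on both of its arrays. These signs depend on the scaling, since a constant added to an array moves every response that uses it. The number with opposite signs ran from 5 (5S scaling) to 18 (cyclic loess) over the 14 sets of values. The median wild-type response was 0.02 in the reported values, −0.89 without normalisation, −1.10 with 5S scaling and 0.85 with scaling on the median. miR5021, miR319c and miR824 had opposite responses in all 14 sets. Without normalisation miR163, miR164c, miR164a and miR157a were lower with salt in both genotypes, and miR163 had responses of −0.77 in ABR17 and −0.83 in the wild type. Pearson's r between the responses was −0.08 across the 30 miRNAs, which share 4 arrays and are not independent. In ABR17, 1 of the 30 had a response of at least 1 (3.33%, miR824) and 0 of −1 or below (0.0%), against 1 (3.33%, miR171a) and 1 (3.33%, miR5021) in the wild type. In 5 of the 8 counted miRNAs (miR319c, miR163, miR164c, miR157a and miR164a) the responses had opposite signs and neither reached 1 in size.

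The same difference can be read as the genotype difference with salt minus that without salt. With salt, ABR17 minus wild type had an SD over the 30 miRNAs of 0.33, and it ran from −0.58 for miR398b to 0.73 for miR824. Without salt its SD was 0.59, and it ran from −1.66 for miR5021 to 1.18 for miR163. The SD was larger without salt in all 14 sets of values, the reported one and 13 others, of which 5 scale each array by a constant and so share the same SDs, leaving 10 distinct results. The 8 counted miRNAs were picked by the difference between these 2 genotype differences. For 7 of the 8 the genotype difference was larger in size without salt, the exception being miR824 (0.73 with salt and −0.56 without). Over all 30 miRNAs the genotype difference was larger in size without salt in 17. For the 5 counted lower it lay between −0.33 and −0.09 with salt and between 0.84 and 1.18 without. WT_control, the array that stood apart, enters the wider comparison, and its part in that width cannot be told apart from the genotype.

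**Figure D4:**
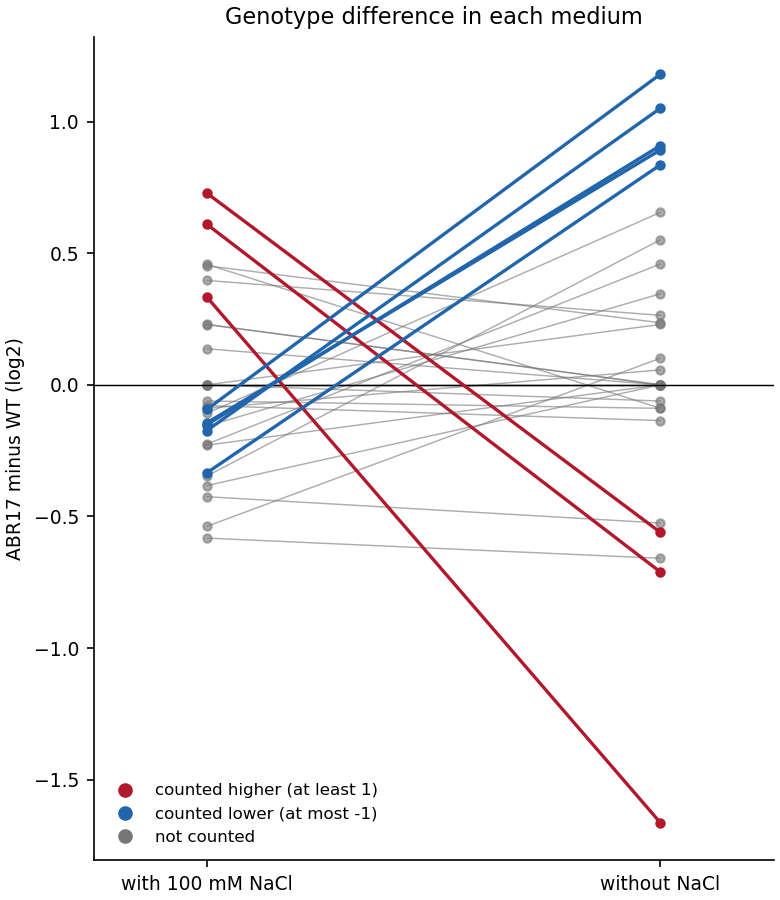
ABR17 minus WT level (log2) of each miRNA with 100 mM NaCl (left) and without NaCl (right); lines join the values of 1 miRNA. The blue lines lie between −0.33 and −0.09 on the left and between 0.84 and 1.18 on the right, and miR5021 goes down to −1.66.

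Relatives mostly had alike differences of responses. Over the 12 pairs of the same family the median gap between the 2 values was 0.28, with a largest gap of 0.98 (miR167a and miR167c), while over all 435 pairs of the 30 miRNAs the median gap was 0.72. Of the 12 family pairs 7 differ by 1 base, and how far such probes share signal was not tested. The 30 sequences held 21 seeds, 7 of them shared by 16 miRNAs. The miR319 and miR159 families are related in sequence, and miR319c lies 3 edits from miR159b and from miR159c, yet their differences were 1.32 against −0.23 and 0.14. miR5021, which is built of repeated GAA units, had the lowest GC content of the 30, whose median was 52.4%, and the highest purine content. Across the 30, the difference of responses had an r of −0.32 with GC content, 0.14 with purine content, 0.14 with mean level and −0.36 with length, as descriptions of probes that share the same arrays.

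The choice of scaling between arrays moved both the median and the order of the values. Without normalisation the median difference of the 30 was 0.99, with scaling on the 5S rRNA probes 0.72, on the 75th percentile 0.15, on the calibration probes 0.09 and on the median level −0.76. Relative to that median these 5 scalings give the same values by construction. At the upper end were 2.53 for miR5021, 2.39 for miR824 and 2.23 for miR319c. Those counted lower in the reported values were −0.92 for miR163, −0.72 for miR157a, −0.64 for miR164c, −0.53 for miR164a and −0.28 for miR171a. The last 2 were not at the lower end, since uncounted miR171b (−0.56) and miR159b (−0.54) lay below both. Uncounted miR319a (1.305), miR398a (1.304), miR398b (1.04) and miR167c (1.02) lay farther from the median than any of those counted lower. Some uncounted miRNAs changed sides relative to the median, such as miR408 at 0.73 in these scalings against −0.64 in the reported values. miR5021, miR319c and miR824 held the 3 highest ranks in all 14 sets of values and kept a difference above 1 in each, the lowest being 1.075 for miR824 without background correction. miR163 was among the 2 lowest in all 14, but its sign turned without normalisation (0.06) and with raw log2 values (0.48). The signs of miR164c, miR164a, miR157a and miR171a turned under those settings and with 5S scaling. From the highest, miR164c held ranks 25 to 30, miR164a 22 to 28, miR157a 21 to 29 and miR171a 16 to 30. Among the uncounted, miR167a, miR167d and miR390a kept their negative sign in 7 of the 13 alternative sets and miR408 in 6, while miR319a kept its positive sign in all 13. miR398a and miR398b, near 0 above, were at 1.39 and 1.13 with scaling on the calibration probes.

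**Figure D5:**
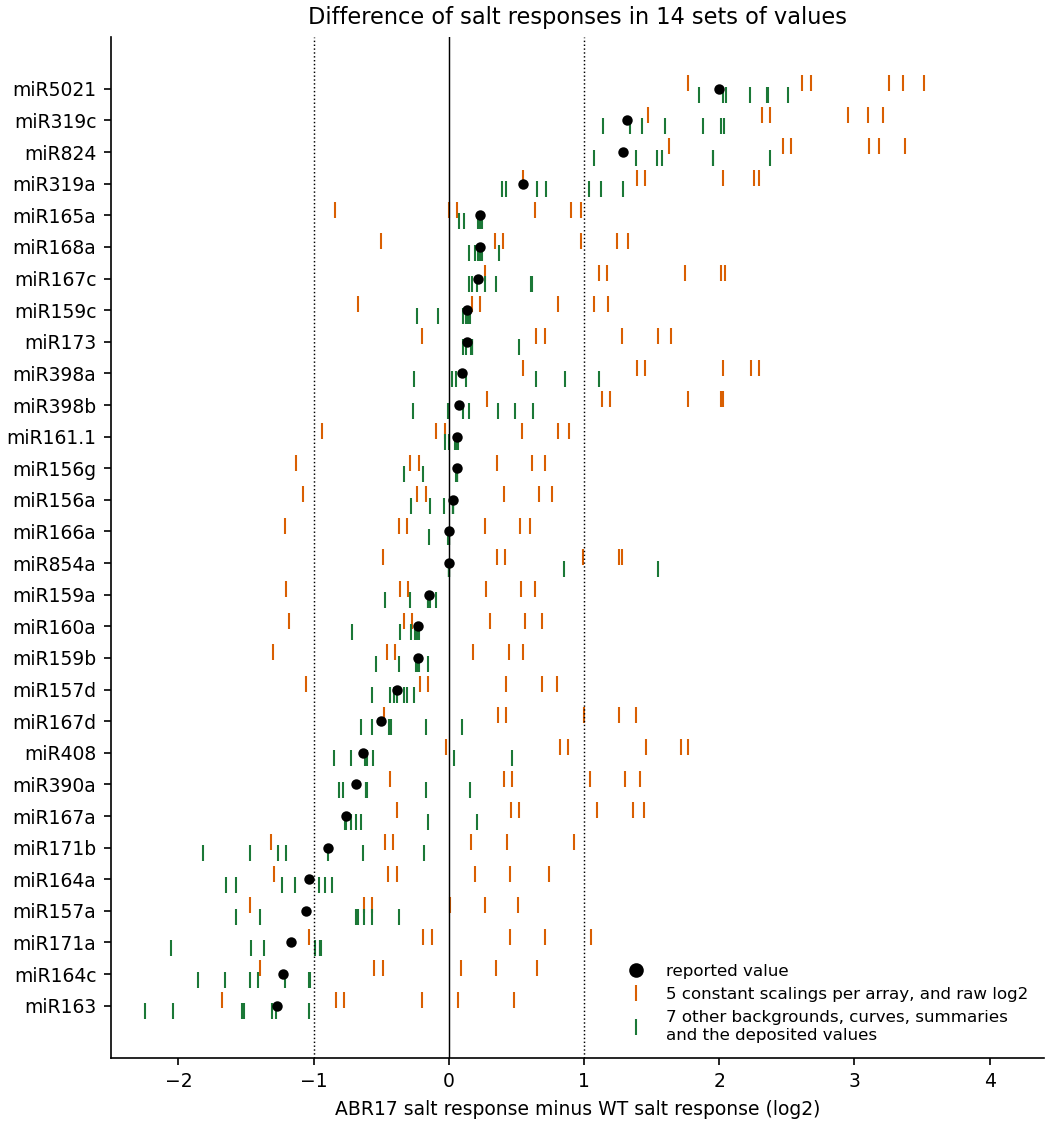
Difference of salt responses (log2) of each miRNA in 14 sets of values: the reported value (black), constant scalings per array and raw log2 (orange ticks), and other backgrounds, curves, summaries and the deposited values (green ticks). The top 3 rows stay right of 1 throughout, while the bottom 5 have ticks on both sides of 0.

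At the margin of detection, the dimmest of the 30 were miR171b and miR824 with 9 and 10 of 12 spots above the threshold on ABR17_control, while miR395b, which targets sulfate assimilation genes, had 1 of 12 there and was left out. Of 63 miRNAs detected on at least 1 array, 33 were left out, and none of these was detected on ABR17_control. In ABR17 these could therefore only gain detection with salt, while in the wild type they could gain or lose it. With salt, 16 of the 33 became detected in both genotypes, 10 in ABR17 alone and 3 in the wild type alone. The 10 include the 5 that were detected on 3 arrays, which were detected in the wild type both with and without salt. Another 3 became detected in ABR17 and undetected in the wild type, namely miR391, miR172a and miR172b*, the last 2 from the family that targets AP2-type flowering regulators. The remaining one, miR158b, became undetected in the wild type alone. The detection thresholds were lower with salt in both genotypes, and their part in these calls was not tested. On ABR17_salt miR172a and miR172b* each had 6 of 12 spots above the threshold, the fewest that count as detected. Their intensities there were 99.0 and 99.6, against 107 and 111 on ABR17_control, so both read dimmer with salt in ABR17. On WT_salt miR172a had 5 of 12 spots above the threshold. miR391 read brighter with salt in ABR17, at 111 against 104.

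Apart from miR395b, 4 of the miRNAs left out were detected on 3 arrays. miR156h, an SPL-targeting miRNA, read 171.4 on ABR17_salt and 105 on ABR17_control (not detected), against 104.5 on WT_salt and 937 on WT_control. miR158a, a miRNA of the Brassicaceae, read 149 on ABR17_salt and 103 on ABR17_control (not detected), against 102 on WT_salt and 591 on WT_control. Both were thus brighter with salt in ABR17 and dimmer with salt in the wild type, like miR5021 and PUC2MM. If computed, the difference of responses would be 3.67 for miR156h and 2.24 for miR158a, both above that of miR5021. The detection rule left both out because of ABR17_control, and a low reading on that array itself makes the difference more positive. miR834 (136, 129, 110 and 457 on ABR17_salt, ABR17_control, WT_salt and WT_control) and miR2936 (113, 111, 111 and 311 in the same order) were brightest on WT_control, where the blank spots were brightest too.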

How the data were processed

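The authors deposited 1 single-colour (Cy3) array file per group, with the mean density of each of 3968 spots, an intensity on a linear scale with no background subtracted, per the file headers, and a table with 1 processed intensity per miRNA, whose scaling they left unstated. Image software: not given in the sources used here. Labelling was done by a service provider, per the labels' protocols. From the spots (2556 for 213 miRNAs, 1120 blank, 268 calibration, 24 for 5S rRNA) the background was corrected with normexp (limma 3.58.1, R 4.3.3, offset 50). Values were taken to log2, averaged over 12 spots and given common quantiles across arrays (213 miRNAs). Dim miRNAs are drawn towards a difference of 0 by the offset, and the same rank on both arrays of a genotype gives a response of exactly 0.

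The difference of responses was (ABR17_salt − ABR17_control) − (WT_salt − WT_control). With 1 array per group no p-value was computed, and precision is limited by the number of arrays. The scripts were tested on simulated arrays with 1 constant gain per array, and the median difference was subtracted before scoring. The reported processing then recovered every direction but not every full size. Shifts between arrays particular to single probes were not simulated, so the test does not speak to them. Every miRNA is named, with levels on all arrays for those of size at least 1 and the relatives shown with them. Loci were matched by symbol to RefSeq (TAIR10.1) for 30 of 30. The miRNAs and family lists were chosen with earlier results of these data known. Alternatives changed the background, offset, scaling, spot summary, detection, size threshold or the values (the authors' deposited table).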

Additional observations from a re-analysis of the deposited data

Results flagged for a closer look

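In 7 of the 8 counted miRNAs the 1 array pair of ABR17 and the 1 array pair of the wild type moved in opposite directions with salt in the reported values. In 3 of them, miR5021, miR319c and miR824, this held in all 14 sets of values, and in the other 4 the wild-type direction depended on the scaling. The differences of responses were 1.996 for miR5021, 1.32 for miR319c, 1.29 for miR824, −1.04 for miR164a, −1.06 for miR157a, −1.22 for miR164c and −1.27 for miR163. None of these differences was tested, as each group had 1 array.

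Outside the miRNA probes, 2 calibration probes had a larger difference of responses before normalisation than any of the 30 miRNAs, whose highest value on that scale was 3.51 (miR5021). PUC2MM was at 4.46, with responses of 1.82 in ABR17 and −2.64 in the wild type. PUC2PM-20B was at 7.72, with intensities of 484 on ABR17_salt and 115 on ABR17_control, against 114 on WT_salt and 3664 on WT_control. The sources used here do not say what these probes hold.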

How the results depend on the processing

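No paired analysis was possible because each group had 1 array and the labels number no replicates. The count of 3 miRNAs higher became 15 without normalisation, 16 with raw log2 values, 11 with 5S scaling, 7 with the 75th percentile, 7 with the calibration probes and 6 in the authors' deposited values. The count of 5 lower became 0 without normalisation, with raw log2 values, 5S scaling, the 75th percentile and the calibration probes, 13 with scaling on the median, 3 with cyclic loess, 3 with the median of spots, 2 with no background correction, 2 with quantiles over the 30 miRNAs alone and 9 at a size of 1.5-fold. The median difference of 0.00 moved to 0.99 without normalisation, 1.11 with raw log2 values, 0.72 with 5S scaling and −0.76 with scaling on the median. Signs turned without normalisation for miR157a (0.27), miR163 (0.0643), miR164a (0.45), miR164c (0.35) and miR171a (0.71), with raw log2 values for the same miRNAs (0.51, 0.48, 0.74, 0.65 and 1.05 in that order), and with 5S scaling for miR157a (0.0069), miR164a (0.19), miR164c (0.0871) and miR171a (0.45). The median shifts alone do not give all of these signs, since values also moved relative to the median, and the cause was not tested. Of 390 values of single miRNAs in the 13 alternative sets of values, 14 values of counted miRNAs turned sign. Another 212 moved by less than the SD of their repeat spots, with the variances of the 4 arrays added. miR5021, miR319c and miR824 were counted in all 13, of which 5 differ from each other only by a constant. The other detection rules leave each value as it is and only change which miRNAs are compared. Leaving out the dimmest miR157a spot, an alternative chosen after seeing the data, left 4 counted lower. Signal over background limits the dim miRNAs, most of all on ABR17_control.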
